A study of Mus musculus with 2 samples.

Results

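Genes of the Sertoli cell, the somatic nurse cell of the seminiferous tubule, were followed in poly(A) RNA of whole testis from balb/c mice at postnatal day 45. The members were 35 genes chosen by name as Sertoli cell genes and found through their gene identifiers in a table of 44002 rows. They were chosen with earlier results of these data known. They comprise transcription factors, hormones and hormone receptors, secreted factors, and a last group of enzymes, cytoskeletal and other proteins. A library from mice exposed to bisphenol A (BPA), an industrial chemical of plastics that can activate estrogen receptors, was compared with a library from mice of the same strain and age whose labels name no treatment. Each group was 1 library made from the mixed material of 3 samples, so no spread between animals was measured and no test between the conditions was possible. The dose, the route and the length of exposure are not stated in the labels. By its title the study was about the spliceosome and meiosis.

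Sertoli cells hold the germ cells in niches, feed them, and form the blood-testis barrier between them. They respond to follicle-stimulating hormone through a cyclic AMP pathway and to androgen, and they answer the pituitary with inhibin. The fate of the cell is set in the fetal gonad by a SOX and GATA transcription factor network, and adult cells go on expressing it. In a whole testis at this age germ cells make up most of the RNA, so Sertoli transcripts are a minor part of each library.

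Levels are in CPM, read counts that the authors scaled to a common total per library. The listed values stand for 45162887 reads with BPA and 41711330 without. A gene was compared when it reached 1 CPM in the higher library, which held for 31 of the 35 members and for 19389 rows in all. Those 31 members were above 1 CPM in both libraries. The 31 members had between 94 and 37049 reads in a library. A fold is the ratio of BPA over control CPM, given with an exact 95% interval for the read counts (binomial, Clopper-Pearson), called the counting interval below. That interval covers counting error only and holds no spread between animals or libraries. It can be too narrow even for counting error, since PCR copies are not independent molecules. A log2 ratio, used for medians and counts, has 0.1 CPM added to both values. Of the 4 members outside the comparison, the niche factor gene Gdnf, the inhibin beta A subunit gene Inhba and the ETS factor gene Etv4 are listed at 0 in both libraries, where the table writes values under 1 CPM as 0. Fgf2, a fibroblast growth factor gene, carries no value.

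Most of the compared members stood slightly higher in the BPA library. Because the list was chosen with earlier results of these data known, the counts below describe these members only. The log2 ratio was above 0 in 29 of 31 members, against 50.9% of all rows compared, and below 0 in 2, Trf and Espn, against 49.1% of all rows. No member reached 2-fold in either direction, where 1.32% of all rows were 2-fold higher and 1.95% were 2-fold lower. At 1.2-fold, 11 of 31 members (35.5%) were higher, against 14.5% of all rows, and 1, Trf, was lower, against 14.9%. When the nearer bound of the counting interval had to pass 1.2-fold, 7 members were higher (22.6%, against 4.01% of all rows) and 0 were lower (against 4.67%). Trf also fell short of 1.2-fold with 1 CPM as the value added. At 1.5-fold, 5 members were higher (16.1%, against 4.27% of all rows) and none was lower (against 5.37%). The median log2 ratio of the members was 0.19, with quartiles of 0.12 and 0.33, beside a median of 0.00 and quartiles of -0.13 and 0.15 over all rows. Summed over the 31 members, the level was 2350 CPM with BPA and 2075 CPM in the control library, a ratio of 1.13. The ratio was also 1.13 without Clu, which alone held 816 and 718 CPM. In RNA from a whole tissue, more cells of a type and more RNA per cell cannot be told apart.

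**Figure D1:**
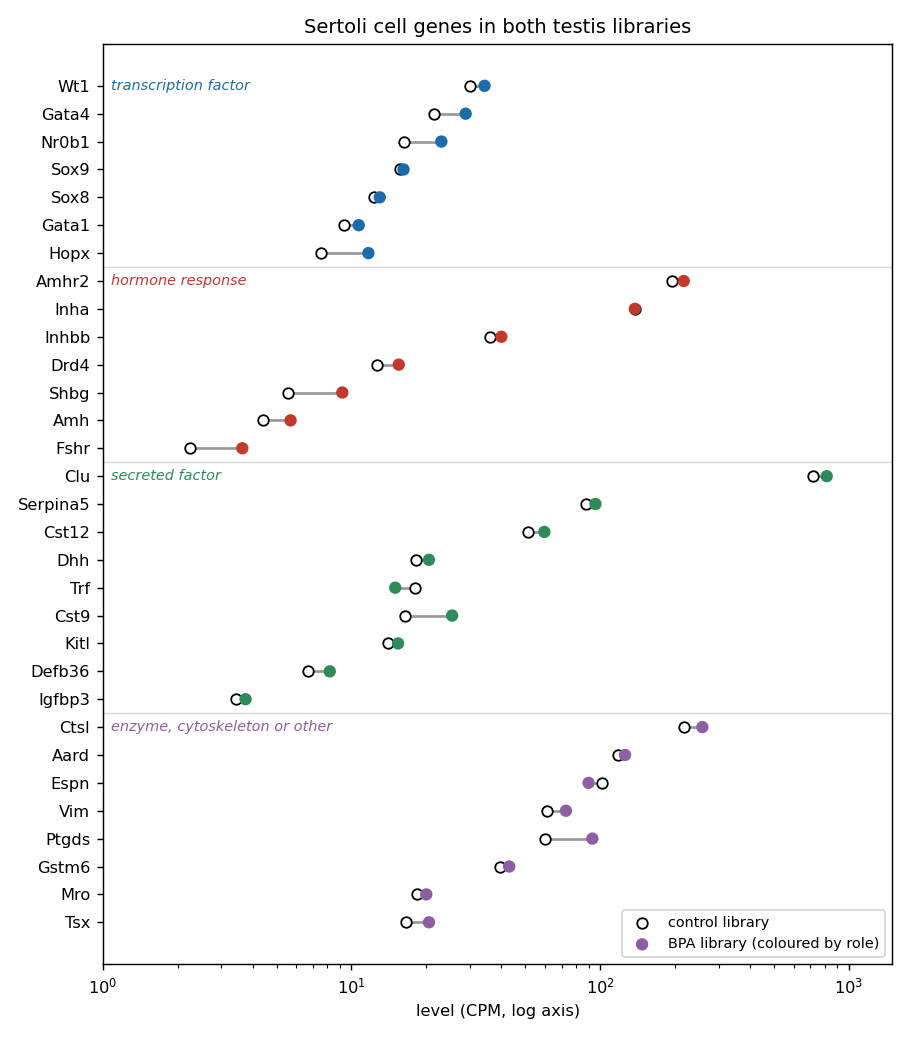
Level of each of the 31 members in CPM on a log axis, with open circles for the control library and filled circles for the BPA library, grouped by role and ordered by the control level. The filled circle lies to the right of the open one for all members except Trf, Espn and Inha. For Inha both circles lie at 138 CPM.

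The ends of this range were Shbg, Fshr and Hopx at the top and Inha, Espn and Trf at the bottom. Promoters of these genes are shown because these members had the highest and the lowest ratios, so that their start regions can be read side by side. The sequences run 5′ to 3′ on the gene's strand from 250 bases before to 50 bases after the start. They came from RefSeq on GRCm38.p6, where entries for 26 of the 35 members were used and Trf had none. Capitals mark 5 motifs searched on both strands: the SOX core AACAAT, the GATA site AGATAA, the nuclear receptor core AGGTCA, the cyclic AMP element core TGACG and the E-box CACGTG. For Hopx and Espn, which have 2 and 3 starts in that table, 1 start each is printed, the one with matches for Hopx and the most upstream for Espn.
Shbg (chr11:69617856-69618155, minus strand): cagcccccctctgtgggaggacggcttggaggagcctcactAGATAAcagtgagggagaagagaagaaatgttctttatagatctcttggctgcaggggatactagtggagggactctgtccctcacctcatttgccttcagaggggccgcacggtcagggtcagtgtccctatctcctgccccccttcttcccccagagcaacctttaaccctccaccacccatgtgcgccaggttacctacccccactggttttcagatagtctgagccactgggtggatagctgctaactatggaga
Fshr (chr17:89200626-89200925, minus strand): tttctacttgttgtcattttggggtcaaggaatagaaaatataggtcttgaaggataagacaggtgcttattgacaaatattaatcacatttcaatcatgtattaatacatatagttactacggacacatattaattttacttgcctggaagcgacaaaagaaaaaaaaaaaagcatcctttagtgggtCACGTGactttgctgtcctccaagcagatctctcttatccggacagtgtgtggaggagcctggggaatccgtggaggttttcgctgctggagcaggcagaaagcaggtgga
Hopx, downstream start (chr5:77095218-77095517, minus strand): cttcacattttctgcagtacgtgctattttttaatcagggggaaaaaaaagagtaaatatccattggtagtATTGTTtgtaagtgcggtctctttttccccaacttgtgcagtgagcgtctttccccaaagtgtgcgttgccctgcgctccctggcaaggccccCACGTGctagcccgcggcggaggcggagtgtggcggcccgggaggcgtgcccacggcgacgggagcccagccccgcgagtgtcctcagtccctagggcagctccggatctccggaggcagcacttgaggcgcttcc
Inha (chr1:75507359-75507658, plus strand): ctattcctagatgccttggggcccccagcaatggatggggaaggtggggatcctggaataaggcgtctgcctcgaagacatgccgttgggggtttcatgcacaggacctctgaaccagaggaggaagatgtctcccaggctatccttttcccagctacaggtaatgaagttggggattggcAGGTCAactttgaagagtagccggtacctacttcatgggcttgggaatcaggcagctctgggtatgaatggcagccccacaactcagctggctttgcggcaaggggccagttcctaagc
Espn, upstream start (chr4:152152340-152152639, minus strand): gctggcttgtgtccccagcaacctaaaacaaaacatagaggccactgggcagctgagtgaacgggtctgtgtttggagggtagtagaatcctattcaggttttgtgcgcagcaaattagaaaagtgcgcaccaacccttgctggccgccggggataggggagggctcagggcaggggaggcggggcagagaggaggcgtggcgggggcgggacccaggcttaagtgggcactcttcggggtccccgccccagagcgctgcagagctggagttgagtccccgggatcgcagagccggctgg

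The Shbg window holds a GATA match, the Fshr window an E-box, the Hopx window a SOX core and an E-box, and the Inha window a nuclear receptor core, while the Espn window holds no match. The 32 member promoters used leave out Mro because of its chromosome, whereas no chromosome was left out of all 32851 promoters. Across the member promoters used, AACAAT occurred in 3 (9.38%), beside 10.7% of all 32851 promoters. AGATAA occurred in 2 (6.25%, beside 11.2%) and AGGTCA in 5 (15.6%, beside 16.3%). The core TGACG occurred in 2 (6.25%, beside 20.8%), and the full element TGACGTCA, which contains it, in 0 (beside 1.79%). CACGTG occurred in 4 (12.5%, beside 7.15%), in the promoters of Ctsl, Fshr, Hopx and Sox8. A match is a description of these letters, and several promoters belong to 1 gene.

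Among the transcription factors, all 7 compared members had a log2 ratio above 0, beside 50.9% of all rows. Their median was 0.20, with a range of 0.05 to 0.63. Sox9, the factor that sets Sertoli cell fate, stood at 16.2 CPM with BPA and 15.7 CPM in the control library, 1.03-fold (0.93 to 1.15). Its relative Sox8, which can stand in for it, stood at 13.0 and 12.3 CPM, 1.06-fold (0.94 to 1.19). Both SOX genes were thus level within counting error. Exons of Sox8 overlap an antisense gene over 10.6% of their length. Wt1, the zinc finger factor needed to keep Sertoli identity, was at 34.3 against 29.9 CPM, 1.15-fold (1.06 to 1.24).

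The GATA factors and the remaining regulators had higher ratios than the SOX genes, but the counting interval of Gata1 overlapped those of both SOX genes. Gata4, which acts in Sertoli and Leydig cells from the fetal gonad onward, stood at 28.8 CPM with BPA against 21.4 CPM, 1.35-fold (1.24 to 1.47). Gata1, better known from red blood cell precursors and also made in adult Sertoli cells, stood at 10.7 against 9.35 CPM, 1.14-fold (1.00 to 1.31). Nr0b1, an X-linked orphan receptor that represses steroid factor targets, was at 23.0 against 16.3 CPM, 1.41-fold (1.28 to 1.55). Hopx, a small homeodomain protein that binds no DNA itself, had the highest ratio of the group, 11.7 against 7.51 CPM, 1.56-fold (1.35 to 1.80). On GRCm38 it spans chromosome 5 from 77086986 to 77115123. Of its exon length, 27.2% overlaps the antisense gene Hopxos, and reads in that part cannot be assigned without strand. The counting interval lay above 1 for 4 of the 7 factors, Wt1, Gata4, Nr0b1 and Hopx, beside 21.8% of all rows.

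The hormone group had the highest median log2 ratio of the 4 roles, 0.29 over 7 compared members, but the lowest ratio of summed levels. That ratio was 1.09 (429 against 394 CPM), beside 1.22 for transcription factors and 1.14 for each of the other groups. Shbg, which encodes the androgen-binding protein of the tubule, stood at 9.19 CPM with BPA and 5.57 CPM in the control library, 1.65-fold (1.40 to 1.94), on 417 and 233 reads. It spans chromosome 11 from 69610282 to 69618026. Fshr, the receptor through which follicle-stimulating hormone acts on these cells, stood at 3.64 against 2.25 CPM, 1.62-fold (1.25 to 2.11). With 165 and 94 reads it was the least deeply counted member, and its interval was the widest on the log scale. Fshr spans chromosome 17 from 88984952 to 89200675.

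Anti-Müllerian hormone, the fetal Sertoli product that removes the female duct, is made at low level after puberty. Its gene Amh stood at 5.69 against 4.40 CPM, 1.29-fold (1.06 to 1.57). The gene for its receptor, Amhr2, was far more abundant, at 217 against 195 CPM, 1.11-fold (1.08 to 1.14). Inha, the alpha subunit shared by the inhibins, was level at 138 CPM in both libraries, 1.00-fold (0.97 to 1.04). Its beta B partner Inhbb stood at 40.1 against 36.1 CPM, 1.11-fold (1.04 to 1.19), while the beta A gene Inhba is listed at 0 in both. The dopamine receptor gene Drd4 was at 15.5 against 12.7 CPM, 1.22-fold (1.09 to 1.37). Within the inhibin and anti-Müllerian genes, then, the abundant ones lay within 1.2-fold and Amh lay above it. For 6 of the 7 hormone genes, Inha being the exception, the counting interval lay above 1, beside 21.8% of all rows.

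**Figure D2:**
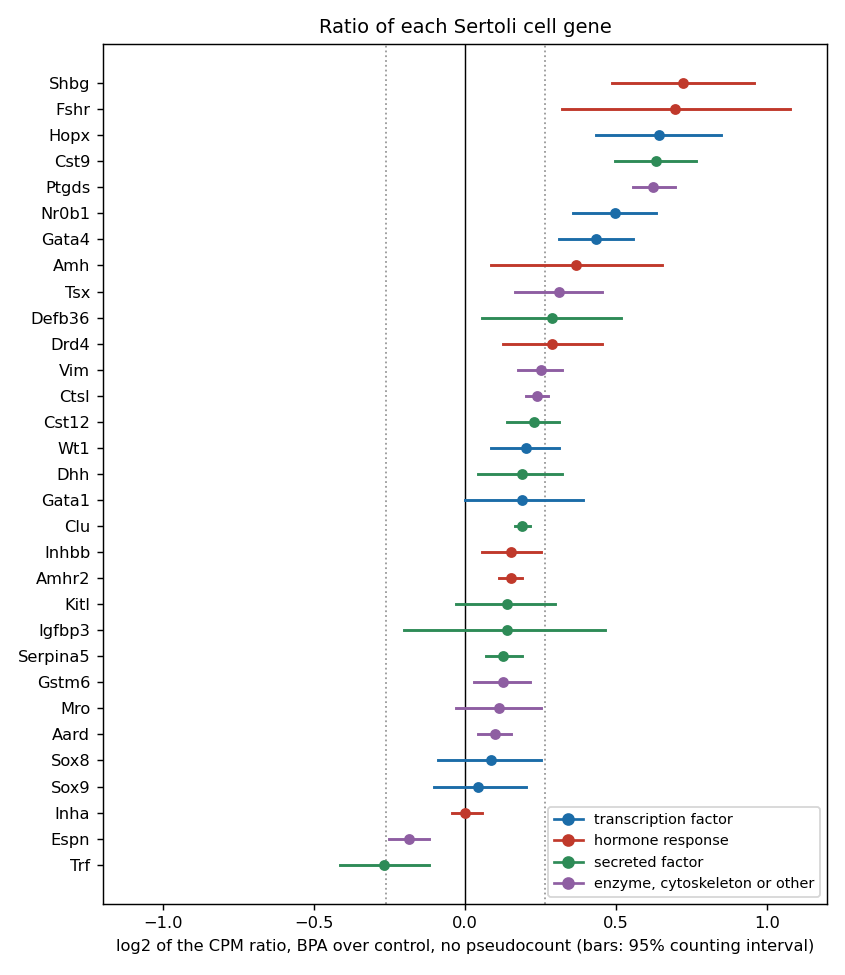
Log2 of the BPA over control CPM ratio without pseudocount for the 31 members, ordered by size and coloured by role, with bars for the 95% counting interval and dotted lines at 1.2-fold. Shbg is at the top with 1.65-fold and Trf at the bottom with 0.83-fold, and no ratio reaches 2-fold.

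Sertoli cells keep spermatogonia through a few signalling proteins. Kitl, which encodes the KIT ligand for differentiating spermatogonia, stood at 15.4 CPM with BPA against 14.0 CPM, 1.10-fold (0.98 to 1.23). Dhh, the hedgehog ligand sent to Leydig and peritubular cells, was at 20.5 against 18.1 CPM, 1.14-fold (1.03 to 1.25). Of the exon length of Dhh, 37.6% overlaps Rhebl1 or an antisense gene. Gdnf, the ligand that maintains spermatogonial stem cells, is listed at 0 in both libraries. Igfbp3, which binds insulin-like growth factors, stood at 3.75 against 3.42 CPM, 1.10-fold (0.87 to 1.38). The 3 niche and growth factor genes that could be compared therefore differed little. The interval of Dhh alone lay above 1, as that of 21.8% of all rows did.

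The remaining secreted members are carriers, a protease inhibitor, genes of the cystatin family and a defensin. Clu, which encodes the chaperone clusterin, was the most abundant member at 816 against 718 CPM, 1.14-fold (1.12 to 1.16). Serpina5, a serine protease inhibitor, stood at 95.8 against 87.6 CPM, 1.09-fold (1.05 to 1.14). Defb36, a beta-defensin gene, stood at 8.18 against 6.70 CPM, 1.22-fold (1.04 to 1.43). Cst9 and Cst12 belong to the cystatin family, named for inhibitors of cysteine proteases, and any action on the member Ctsl was not tested. Cst9 stood at 25.4 CPM with BPA against 16.4 CPM, 1.55-fold (1.41 to 1.70). Cst12 stood at 59.7 against 51.1 CPM, 1.17-fold (1.10 to 1.24). These 2 genes lie 41.7 kb apart on chromosome 2, with Cst12 from 148789365 to 148793432 and Cst9 from 148835147 to 148838737, and their counting intervals do not overlap. They shared no 50-base word with another locus.

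Transferrin carries iron to the germ cells behind the barrier, and its gene Trf went the other way. Trf stood at 15.0 CPM with BPA against 18.0 CPM without, 0.83-fold (0.75 to 0.92), the lowest ratio of all members. Of its exon length 63.5% is shared with the annotated gene Gm20425 on the same strand, so the reads of Trf are uncertain. It spans chromosome 9 from 103208876 to 103230286.

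In the group of enzymes, cytoskeletal and other proteins, 7 of 8 members had a log2 ratio above 0, beside 50.9% of all rows. The median of the group was 0.18. Ptgds, the prostaglandin D2 synthase that also carries retinoids and other lipids, stood at 93.1 CPM with BPA against 60.3 CPM, 1.54-fold (1.47 to 1.62). It was the member with the highest ratio among those above 30 CPM in the mean, and it spans chromosome 2 from 25466709 to 25470110. Ctsl, the lysosomal protease cathepsin L, was at 258 against 218 CPM, 1.18-fold (1.15 to 1.21), with 32.9% of its exon length overlapping another annotated gene. The glutathione transferase gene Gstm6 was at 43.1 against 39.7 CPM, 1.09-fold (1.02 to 1.16), and 5.97% of its 50-base words occur at other loci.

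The cytoskeletal members differed in direction. Vim, which encodes the intermediate filament vimentin, stood at 72.9 against 61.3 CPM, 1.19-fold (1.13 to 1.25). Espn, whose product espin bundles actin at the ectoplasmic specializations that anchor spermatids, stood at 89.9 against 102 CPM, 0.88-fold (0.84 to 0.92). Espn spans chromosome 4 from 152120331 to 152152414. Tsx, an X-linked gene near Xist, was at 20.5 against 16.6 CPM, 1.24-fold (1.12 to 1.37). Mro, named maestro for its male-specific expression in the fetal gonad, was at 20.0 against 18.4 CPM, 1.08-fold (0.98 to 1.19). Aard was at 126 against 118 CPM, 1.07-fold (1.03 to 1.11). Over all roles the counting interval lay above 1 for 22 of 31 members (71%, beside 21.8% of all rows) and below 1 for Trf and Espn (6.45%, beside 21.3%).

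Per kilobase of exon, the scale on which genes can be set against each other, Clu was highest in the control library at 209 CPM per kb. Amhr2 followed at 97.3, Inha at 93.5, Aard at 87.8 and Cst12 at 77.9 CPM per kb. In this order of levels, the exact 95% Poisson intervals of 16 of 30 neighbouring pairs overlapped, the pair Amhr2 and Inha among them. The lowest were Kitl at 2.36, Igfbp3 at 1.09 and Fshr at 0.953 CPM per kb. In the BPA library the values at the top were 238, 108, 93.7, 93.7 and 91.1 CPM per kb for the same 5 genes, with Inha and Aard equal to 3 digits. By CPM, the members lay between the percentiles 25.2 (Fshr) and 99.4 (Clu) of all rows compared, with a median of 61.7.

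Ratios scatter more at low levels, so the members were also set beside rows of similar mean level. Between 1 and 10 CPM, 6 of 6 members were above 0, against 50.6% of 8715 rows. Their median log2 ratio was 0.50, beside a median of 0.00 and quartiles of -0.25 and 0.24 for the rows. Between 10 and 30 CPM, 11 of 12 were above 0, against 54.7% of 4076 rows. Their median was 0.19, beside 0.02, -0.10 and 0.15 for the rows. Between 30 and 100 CPM, 7 of 8 were above 0, against 52.9% of 3502 rows. Their median was 0.18, beside 0.01, -0.07 and 0.08 for the rows. Between 100 and 1000 CPM, 5 of 5 were above 0, against 44.5% of 2335 rows. Their median was 0.15, beside -0.01, -0.07 and 0.04 for the rows. The members thus leaned the same way at each level, and the size of the median was largest among the least abundant.

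**Figure D3:**
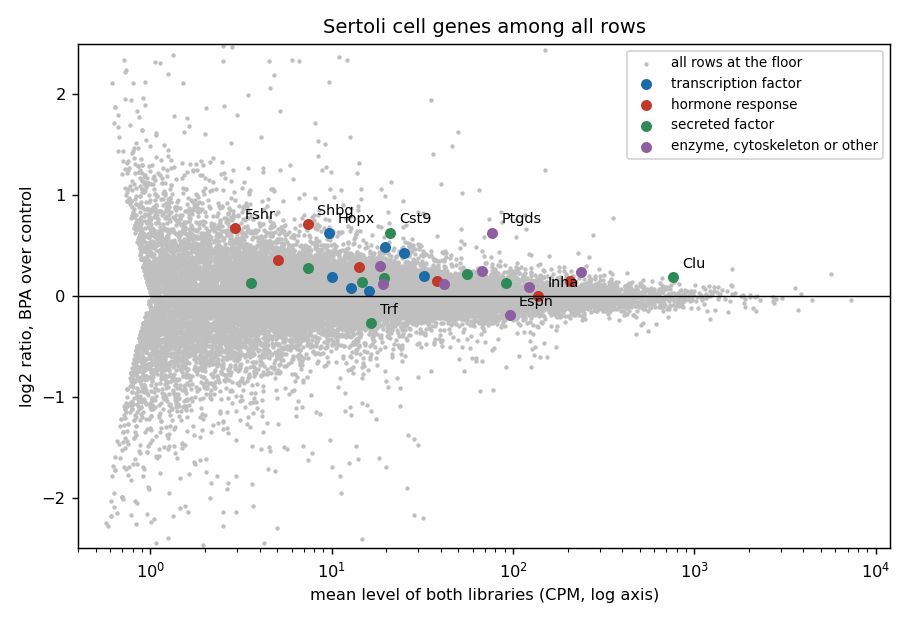
Log2 ratio of BPA over control against the mean level in CPM (log axis), in grey for all rows compared and in colour by role for the 31 members; rows beyond 2.5 in size are not drawn. The members lie between -0.27 and 0.71, mostly above the line at 0.

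Receptors and partners of the secreted members lay near the share over all rows. Of 30 such genes compared, 16 were above 0 (53.3%) with a median of 0.03, and 6 were 1.2-fold higher and 4 lower. Smad7, an inhibitor of the activin and transforming growth factor pathways, stood at 4.45 against 2.30 CPM, 1.94-fold (1.51 to 2.5). Ptch1, the gene of a receptor for the hedgehog ligand, stood at 13.3 against 8.52 CPM, 1.56-fold (1.36 to 1.78). In the pathway from the follicle-stimulating hormone receptor through cyclic AMP, 19 of 32 genes were above 0 (59.4%) with a median of 0.06, 7 being 1.2-fold higher and 3 lower. One of those, the receptor-desensitizing arrestin gene Arrb2, was 2-fold lower, at 2.27 against 4.83 CPM, 0.47-fold (0.37 to 0.60). In the list for glucose, lactate, retinoid, iron and glutamine supply, 21 of 33 were above 0 (63.6%) with a median of 0.06, 2 being 1.2-fold higher and 3 lower.

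A second list of genes known from Sertoli cells, none of them members, leaned less. Of 30 compared, 19 were above 0 (63.3%), the median log2 ratio was 0.06, 5 were 1.2-fold higher and 4 lower. Rhox8, an X-linked homeobox gene, was at 1.43 CPM with BPA against 9.04 CPM, 0.16-fold (0.12 to 0.21), a larger difference than in any member. Its relative Rhox5 was at 5.33 against 3.73 CPM, 1.43-fold (1.16 to 1.76). Several genes of this second list are also expressed in other testis cells. The difference in lean between both lists was not tested.

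Markers of the other cells of the testis were read beside the members, and their part in the members' ratios was not tested. Leydig cell markers came closest in the median, at 0.13. They were above 0 in 10 of 12, with summed levels of 1181 CPM with BPA and 1112 CPM in the control library. Of these, Hsd3b6, a steroid dehydrogenase gene of adult Leydig cells, stood at 41.4 against 23.6 CPM, 1.75-fold (1.62 to 1.89), and its relative Hsd3b1 at 101 against 129 CPM, 0.78-fold (0.75 to 0.81). Peritubular and smooth muscle markers were above 0 in 9 of 10, but with a median of 0.07 and no member of the list 1.2-fold apart, at summed levels of 573 and 541 CPM. Macrophage markers were above 0 in 6 of 10 (121 and 114 CPM) and endothelial markers in 3 of 10 (67.8 and 66.8 CPM). Some members, among them Inha, Gata4, Nr0b1, Clu, Vim and Ptgds, are known from other cells of the testis too. The 12 compared members that textbook knowledge places mainly in Sertoli cells (Fshr, Sox9, Wt1, Gata1, Amh, Dhh, Cst9, Cst12, Aard, Defb36, Sox8 and Mro) were all above 0, with a median of 0.19. That subset leaves out Trf and Espn, the only members below 0, and Inha, which was level. Its count above 0 is therefore no separate evidence of a lean.

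Germ cell markers lay near 0. The median was 0.07 for spermatogonia (9 of 13 above 0), 0.03 for spermatocytes (8 of 13), -0.05 for round spermatids (3 of 12) and 0.03 for elongating spermatids (9 of 12). The summed level of the elongating spermatid markers was 27106 CPM with BPA and 25952 CPM in the control library, far above the members. Of 14 epididymis markers, 13 did not reach 1 CPM in either library. The remaining one, Wfdc10, was 1.61-fold (1.38 to 1.88). Adipocyte markers went the other way, with 7 of 11 being 2-fold lower in the BPA library and a median of -1.91, at summed levels of 396 and 467 CPM. Most of that sum was Pnpla2, a lipase gene that other cells also express, at 363 and 375 CPM. Adipoq, the adiponectin gene of fat cells, stood at 15.4 and 17.2 CPM, and both were named after their values were seen. Fabp4, the fatty acid carrier of fat cells, stood at 2.07 against 24.4 CPM.

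**Figure D4:**
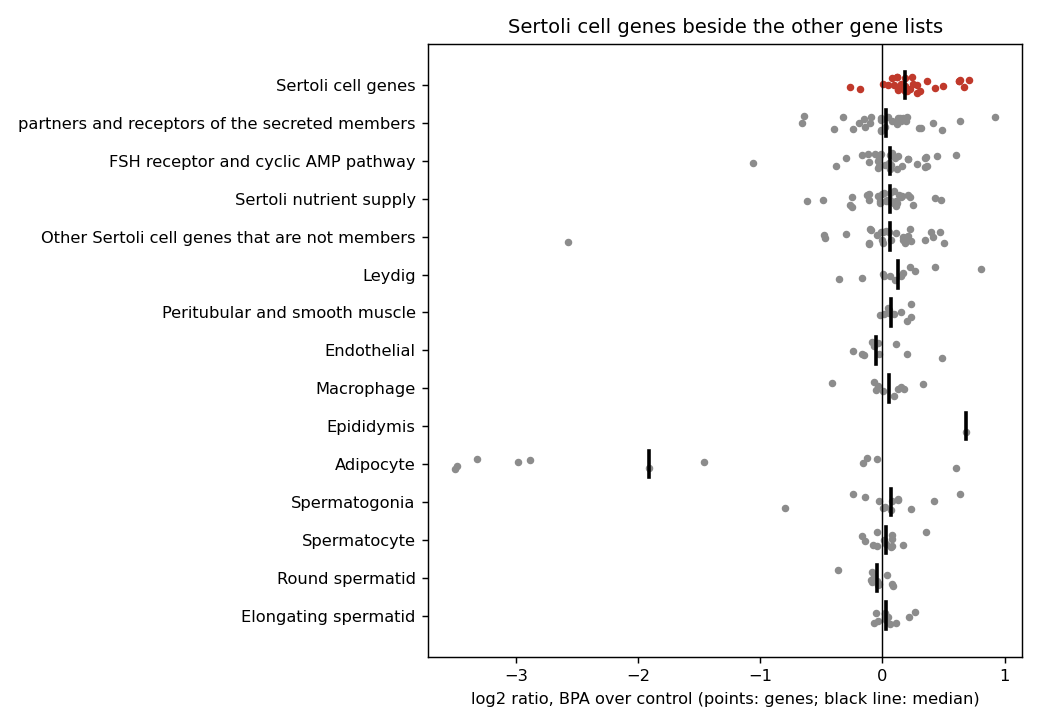
Log2 ratio of BPA over control for each gene compared (points) and the median (black line), for the 31 Sertoli cell genes in red and for 14 other lists in grey. The Sertoli cell genes have a median of 0.19, Leydig markers 0.13 and adipocyte markers -1.91.

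The member with the highest ratio, Shbg, lies close to a stretch of chromosome 11 in which other genes differed strongly. Of 72 rows compared within 1 Mb of Shbg, 11 were 2-fold or more apart (15.3%, beside 3.28% of all rows), 4 higher and 7 lower. They include Gps2, a corepressor subunit gene, at 12.8 CPM with BPA against 121 CPM, and Zmynd15, at 45.9 against 3.25 CPM. Arrb2, named above, is also among them. The nearest of these 11 genes, 2810408A11Rik, lies 279 kb from Shbg between gene ends, and of 28 rows within 250 kb none was 2-fold apart. The next genes to Shbg on each side were Sat2, 3.97 kb away, at 5.36 against 3.44 CPM, and Atp1b2, 4.30 kb away, at 26.5 against 22.8 CPM. Without Shbg, an alternative chosen after seeing the data, 28 of 30 members were above 0 and their median was 0.19. For the other 30 members, 21 of 881 neighbours counted per member were 2-fold apart (2.38%), and 18 members had no such neighbour, Hopx, Cst9, Cst12, Ptgds, Trf and Espn among them.

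**Figure D5:**
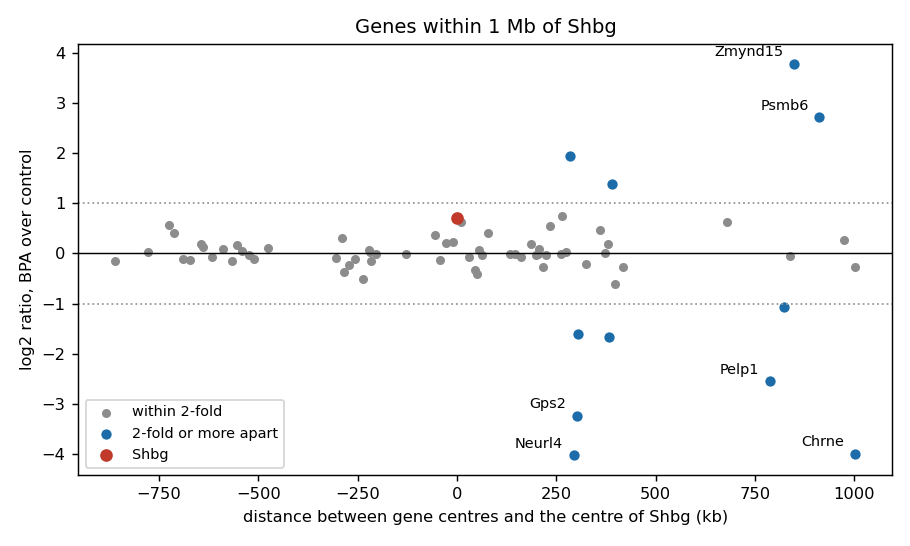
Log2 ratio of BPA over control for the 72 rows within 1 Mb of Shbg, by the distance in kb between gene centres, with dotted lines at 2-fold and Shbg in red. The 11 rows that are 2-fold or more apart (blue) all lie on 1 side of Shbg, the nearest with its centre 285 kb away.

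The authors' deposited table calls none of the members. It calls 28 genes in all, 0.0956% of the 29279 rows with a p-value. In the authors' deposited table the q-value of each of the 34 members with a fold change is 0.99996. An unadjusted p-value under 0.05, which 0.615% of its rows have, is given in the authors' deposited table for Ptgds and Clu alone among the members. Those values are 0.0075 for Ptgds and 0.0101 for Clu. For the members listed at 0, the authors' deposited table gives log2 fold changes of 1.54 for Inhba, 0.70 for Gdnf and -0.55 for Etv4, which rest on values under 1 CPM in both libraries.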

How the data were processed

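Per the labels' protocols, testis RNA was extracted with Trizol, enriched on oligo(dT) beads and made into libraries with no step that marks strand. The tools were HISAT2 2.0.4 and HTSeq 0.6.1, and the build was mm10, per the submitters' processing notes; annotation, strand setting and scaling are not stated there. The authors deposited CPM values under a read count heading: they sum to 995266 and 997834, values under 1 are written as 0, and 10618 of 44002 rows carry none. The deposited log2 fold change is the ratio of BPA over control CPM (largest gap 4.98e-05), and p-values and q-values are the authors', from a program not given here. Listed values are whole multiples of 0.0220 CPM (BPA) and 0.0239 CPM (control), within 2.33e-10 of a step, and the step was taken as 1 read. A listed 0 was filled from the deposited fold change where the other library reached 1 CPM (812 and 592 rows, within 0.0016 read of a whole number); no member was affected. No count model was fitted, because each group has 1 library.

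Symbols came from RefSeq on GRCm38, the build named by mm10 (40269 of 41571 numeric identifiers matched); 1063 of the 19389 rows compared are unnamed transcripts. Exon length, overlap and shared 50-base words came from GENCODE M21. Calculations used Python 3.11.15, numpy 2.4.6, pandas 2.3.3 and scipy 1.17.1, and were checked on simulated reads. All members are given, and from each other list only genes among its 4 largest log2 ratios in size, besides neighbours of Shbg, Pnpla2 and Adipoq, named after their values were seen. The members and lists were chosen with earlier results of these data known. Alternatives covered scaling, pseudocount, floor, the member list and the fold limit.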

Additional observations from a re-analysis of the deposited data

How the results depend on the processing

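The lean of the members toward the BPA library kept its direction and its median log2 ratio lay between 0.18 and 0.19 under all settings that recompute it. The settings were scaling by trimmed mean or by median of ratios, a pseudocount of 1 CPM or none, and a floor of 4 CPM. Others left out 7 members with overlapping exons or shared sequence, kept only 12 members placed mainly in Sertoli cells, or took listed zeros as 0. Leaving out Shbg was chosen after seeing the data. Most of these settings could hardly change the lean. The scalings shifted log2 ratios by 0.003 and 0.004, a pseudocount cannot turn a sign, and no compared member had a listed 0. None of them measures the spread between animals. The count above 0 was 28 of 31 under both scalings, where Inha, level in both libraries, crossed 0. It was 12 of 12 among the members placed mainly in Sertoli cells, a subset without Trf and Espn, the only members below 0. The count 1.2-fold higher became 4 of 12 in that subset and 7 of 31 when the nearer interval bound had to pass, as 4.01% of all rows did. The 1 member that was 1.2-fold lower, Trf, was lost (count 0) with a pseudocount of 1 CPM, with overlapping members left out, in the subset and on the nearer bound. With 1.5-fold in place of 2-fold, 5 members were higher and 0 lower. Of 62 values of single members under another scaling or pseudocount, 62 moved by less than their counting interval. No paired analysis was possible because each group has 1 library. Depth limits Fshr and Igfbp3 most, and it leaves Inhba, Gdnf and Etv4 without a level.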
